A study of Ovis aries with 9 samples.

Results

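The libraries compared here were 6 of the 9 hypothalamus libraries of a study of puberty in Dolang sheep, 3 with a high and 3 with a low level of SLC17A6. SLC17A6 is the vesicular glutamate transporter of many hypothalamic and other subcortical neurons. The libraries were chosen by that level, after Puberty 2 had been left out. SLC17A6 was summed over its protein-coding RefSeq transcripts (1 transcript) in each library, and the 8 libraries other than Puberty 2 were ranked. The first 3 (Prepuberty 2, Postpuberty 2 and Puberty 1) are called SLC17A6-high and the last 3 (Postpuberty 3, Prepuberty 1 and Postpuberty 1) SLC17A6-low, and Puberty 3 and Prepuberty 3 fell in neither set. The study took hypothalamus tissue from healthy ewes under the same management at prepuberty (120 days of age), puberty (130 days) and postpuberty (150 days), with 3 ewes per stage, 1 library from each and no treatment. The SLC17A6-high set held 1 library of each stage. The SLC17A6-low set held 1 library of prepuberty, 0 of puberty and 2 of postpuberty, so the sets were not balanced for stage.

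Neurons carry signals along their axons with voltage-gated sodium and potassium channels and pass them on by releasing transmitter from vesicles, which SNAP25, syntaxin and synaptotagmin proteins fuse with the membrane. Excitatory neurons load these vesicles with glutamate through SLC17A6 or a related transporter, and inhibitory neurons make GABA with GAD2 and its partner enzyme. A block of hypothalamus also holds glia, vessels, microglia, ventricle lining and meninges, and it borders thalamus, telencephalon and pituitary, so the genes read from it follow both the cells that were dissected and what those cells express. In such bulk tissue, fewer cells of a type and less RNA per cell cannot be told apart.

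Values are FPKM as deposited by the authors (fragments of a transcript relative to its length and to the library's mapped total), summed over the protein-coding RefSeq transcripts of each gene. Differences are of mean log2(FPKM + 1), SLC17A6-high minus SLC17A6-low, given with the SD within sets (pooled over both, 3 libraries each), and they understate the change of genes with low values. Because the libraries were ranked by a value measured in them, these differences are a description and were not tested. A gene is called separated where all 3 libraries of one set lay above all 3 of the other. The number of reads behind each value is not in the values used here. The summed FPKM ranged from 359588 to 398109 and the number of genes at an FPKM of at least 1 from 11719 to 12374 over the 8 ranked libraries, while Puberty 2 stood apart with 599726 and 9395.

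SLC17A6 (chromosome 21, 19967231 to 20008001 in ARS-UI_Ramb_v3.0) was at 53.3 in Prepuberty 2, 31.8 in Postpuberty 2 and 13.7 in Puberty 1, and at 8.39 in Postpuberty 3, 4.31 in Prepuberty 1 and 0.581 in Postpuberty 1. Puberty 2, at 2.83, would have entered the SLC17A6-low set by its level in place of Postpuberty 3. The upper limit of the ranking fell between close values, with Puberty 1 at 13.69 inside and Puberty 3 at 13.51 outside, and the lower one between Prepuberty 3 at 10.96 outside and Postpuberty 3 at 8.39 inside.

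The other 3 marker genes of neurons were also higher on average in the SLC17A6-high set. SNAP25, a membrane fusion protein of the synapse, was at 558 in Prepuberty 2, 448 in Postpuberty 2 and 366 in Puberty 1, against 340 in Postpuberty 3, 144 in Prepuberty 1 and 211 in Postpuberty 1. Its sets did not overlap, but Puberty 1 and Postpuberty 3 were near each other, and the difference was 1.05 (SD 0.49). SYT1, the calcium sensor of vesicle release, was at 117, 68.1 and 35.6 in the same order and at 32.2, 17.5 and 52.8 in the SLC17A6-low libraries. Postpuberty 1, the library with the least SLC17A6, thus had more SYT1 than Puberty 1, and the difference was 1.06 (SD 0.81), with 0.65 without Prepuberty 2 and 0.66 without Prepuberty 1. GAD2, which makes GABA, was at 44.8, 20.7 and 13.0 against 7.12, 1.76 and 9.80, without overlap and with a difference of 1.95 (SD 0.96). Of the 2 libraries in neither set, Puberty 3 had 448 of SNAP25, as much as Postpuberty 2, and 3.47 of GAD2, less than 2 of the 3 SLC17A6-low libraries.

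**Figure D1:**
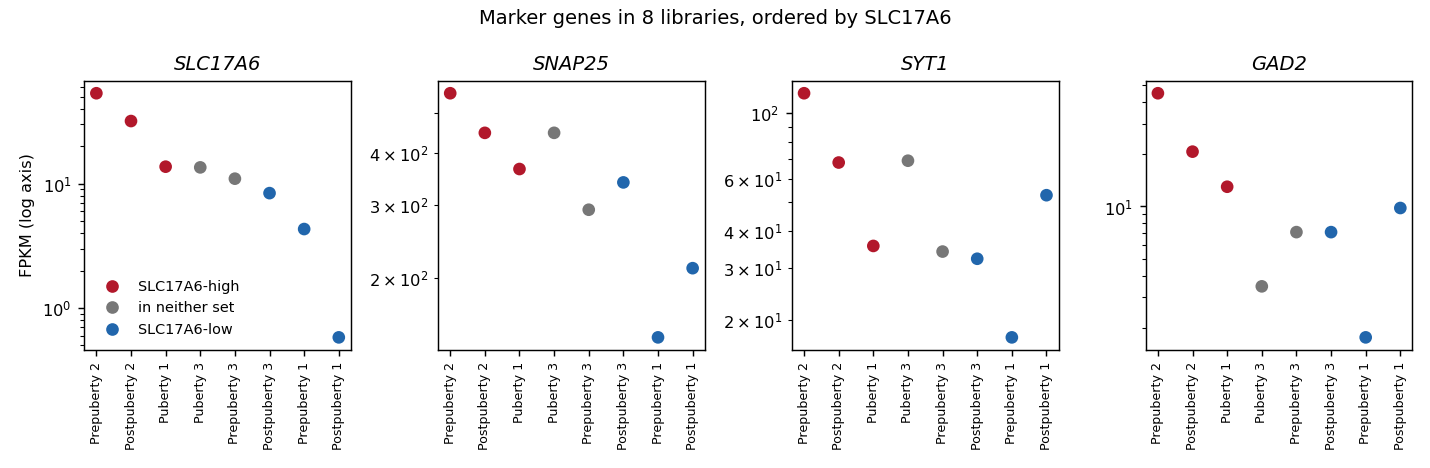
FPKM (log axis, own range in each panel) of SLC17A6, SNAP25, SYT1 and GAD2 in the 8 ranked libraries, ordered from most to least SLC17A6, 1 point per library. SNAP25 and GAD2 separate the 3 SLC17A6-high from the 3 SLC17A6-low libraries, whereas Postpuberty 1 lies above Puberty 1 for SYT1.

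The sets are named by SLC17A6 and not by neuron content, since the wider neuronal lists went with that label only in part. Of 20 measured genes of neuronal identity and cytoskeleton, 6 were higher in the SLC17A6-high set without overlap and 0 were lower, and the median difference was 0.99. Their summed FPKM was 2640 in Prepuberty 2, 2510 in Postpuberty 2 and 2248 in Puberty 1, and 989 in Prepuberty 1 and 654 in Postpuberty 1, but 2665 in Postpuberty 3, the highest of all 8. NEFM, a neurofilament subunit of axons, was at 238, 327 and 371 in Prepuberty 2, Postpuberty 2 and Puberty 1, and at 565 in Postpuberty 3, 75.2 in Prepuberty 1 and 22.03 in Postpuberty 1. UCHL1, an abundant neuronal ubiquitin hydrolase, was likewise highest in Postpuberty 3 (477). Postpuberty 3 therefore had low SLC17A6 with more NEFM and UCHL1 than every SLC17A6-high library. Without it, 15 of the 19 genes then measured separated the sets, with 2666 higher among all genes.

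Among all 12327 genes with a mean FPKM of at least 1 over the 6 libraries (SLC17A6 left out), 1667 (13.5%) were higher and 2324 (18.9%) were lower in the SLC17A6-high set without overlap. Of these, 274 (2.22%) were higher and 459 (3.72%) lower by at least 1 on the log2 scale. A gene could pass the filter through the set in which it was high, so the counts of members below hold for the genes that passed and not for whole lists. These counts were not tested and are to be read beside the 13.5% and 18.9% of all genes. The median difference of all genes was -0.04, with quartiles of -0.31 and 0.24. The split between directions followed the scaling, since 41.8% of separated genes were higher with the FPKM as deposited and 58.7% (2411 higher, 1693 lower) after scaling the libraries to an equal sum. Separation also turned on single libraries near the limits of the ranking. Postpuberty 3 was the nearest SLC17A6-low library for 69.5% of the 1667 higher genes and Puberty 1 the nearest SLC17A6-high library for 65.9%, and leaving them out gave 2666 and 2788 higher genes, with 588 and 513 past 1 on the log2 scale. Without Postpuberty 1, 710 genes were lower by at least 1. With 3 libraries against 2, more genes separate by construction. With 1 library left out, 1896 to 2788 of all genes were higher and 2705 to 3213 lower. List counts without 1 library are to be read beside these.

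The 12 genes with a name and the largest positive separated differences were GAD2, MYADM, SCN4B, NAT9, CMTM4, NKRF, KCNAB3, ZMAT4, SYT3, KCNC1, RGS8 and NRSN2. Several of them serve the electrical activity or release machinery of neurons. KCNC1, a potassium channel subunit of fast-firing neurons, was at 33.7 in Prepuberty 2, 29.9 in Postpuberty 2 and 16.9 in Puberty 1, against 9.40 in Postpuberty 3, 1.99 in Prepuberty 1 and 8.29 in Postpuberty 1, a difference of 2.02 (SD 0.79). KCNAB3, an accessory subunit of potassium channels, was at 22.8, 23.6 and 12.8 against 6.04, 1.36 and 3.81 (2.22, SD 0.66). SCN4B, an accessory subunit of sodium channels, was at 36.6, 30.8 and 28.0 against 20.6, 1.93 and 2.56 (2.42, SD 1.13), so that Postpuberty 3 stood nearer to the SLC17A6-high libraries than to the others of its set. Puberty 3 and Prepuberty 3, in neither set, had 45.7 and 30.5 of SCN4B, as high as the SLC17A6-high set.

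SYT3, a synaptotagmin, was at 12.9, 9.24 and 4.31 against 2.48, 0.394 and 1.17. RGS8, a regulator of G protein signalling, was at 44.6, 37.1 and 16.9 against 7.86, 2.92 and 13.7, and NRSN2, a vesicle membrane protein of neurons, at 37.0, 39.2 and 26.8 against 16.5, 6.12 and 5.06. ZMAT4, a zinc finger protein, was at 13.3, 10.5 and 4.41 against 1.85, 0.905 and 1.19. In these 4 genes Puberty 1 was the lowest SLC17A6-high library.

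The other 4 of the 12 are not known chiefly for a neuronal role. MYADM was at 11.6, 11.2 and 9.01 against 1.58, 0.468 and 1.17, with the largest difference of the separated genes with a gene name (2.52, SD 0.32). CMTM4 was at 14.4, 10.6 and 10.0 against 1.11, 0.698 and 2.65. NAT9 was at 6.56, 8.80 and 1.12 against 0.0158, 0.0211 and a listed 0. NKRF, a repressor of NF-kappa B targets, was at 4.38, 3.82 and 2.93 and was listed at 0 in all 3 SLC17A6-low libraries. NAT9 and NKRF were thus at or near 0 in the whole SLC17A6-low set. An estimate of 0 in such files can be a failed estimate, so no fold is given for either.

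**Figure D2:**
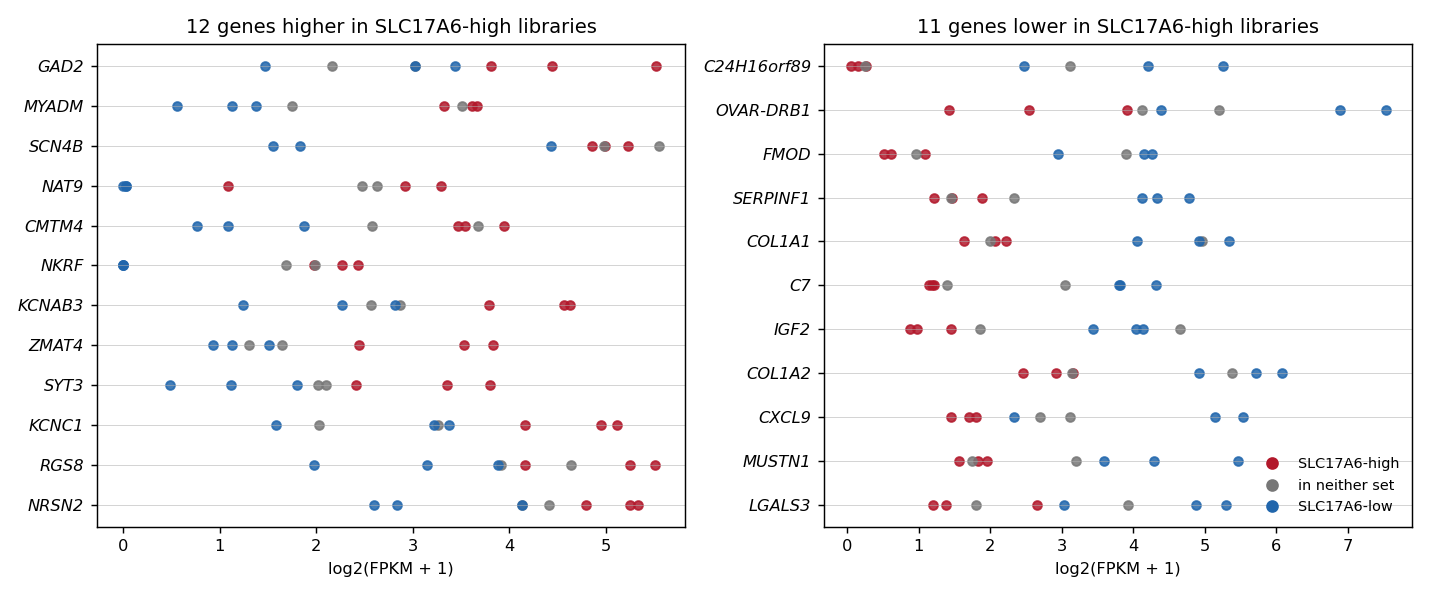
log2(FPKM + 1) of 12 genes with large positive (left) and 11 with large negative (right) separated differences of the SLC17A6-high libraries, 1 point per library, with the 2 libraries in neither set in grey. The sets separate in each gene because the genes were chosen for it, while the grey points, which were not used for that choice, fall on either side or between the sets.

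Genes of vesicle release and of voltage-gated channels were the neuronal lists in which over 0.5 of the measured members separated the sets. Of 20 vesicle release genes measured, 11 were higher and 0 lower, with a median difference of 1.01, against 13.5% and 18.9% of all genes. Their summed FPKM was 2086, 1624 and 1316 in Prepuberty 2, Postpuberty 2 and Puberty 1, against 1154 in Postpuberty 3, 533 in Prepuberty 1 and 769 in Postpuberty 1, so the sets did not overlap. The separated members included (these and other list members beyond the 3 with the highest levels were picked after their values were seen) the vesicle protein SV2A (1.59, SD 0.59) and SYP, the vesicle protein synaptophysin (1.30, SD 0.52). SYP was at 197, 165 and 126 against 108, 44.3 and 55.4. VAMP1, a vesicle fusion protein, was at 204, 192 and 191 against 168, 55.7 and 38.7 (1.44, SD 0.77). The complexin CPLX1, a regulator of release, was the 1 member with a negative difference (-0.73), and its sets overlapped.

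Of 15 measured genes of voltage-gated channels, 9 were higher and 0 lower, with a median of 1.12. All 15 differences were above 0, from 0.48 to 2.02. KCNA2, a potassium channel of axons, was at 18.6, 8.67 and 12.1 against 3.53, 1.56 and 3.08 (1.91, SD 0.48). KCNC2, which like KCNC1 serves rapid firing, was at 11.1, 8.01 and 6.06 against 3.95, 1.45 and 0.650 (1.76, SD 0.63). SCN1A, a sodium channel, was at 5.01, 4.97 and 4.17 against 2.54, a listed 0 in Prepuberty 1 and 0.886. SCN3B, a sodium channel accessory subunit, was at 36.7, 19.5 and 14.96 against 12.8, 5.25 and 5.74 (1.47, SD 0.63). HCN2, the pacemaker channel with the highest level of the list, did not separate the sets (0.76, SD 0.48), since Postpuberty 3 (70.0) exceeded Postpuberty 2 (68.6) and Prepuberty 2 (64.7). With 1 library left out at a time, the difference of HCN2 ranged from 0.52 to 1.15.

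Of the identity list, INA, an intermediate filament of neurons, was at 111, 116 and 94.3 against 63.7, 22.6 and 23.98 (1.68, SD 0.59). It separated the sets, unlike the neurofilament NEFH (1.01, SD 1.17), which was at 40.8 in Postpuberty 2, 16.2 in Postpuberty 3 and at most 10.45 in the other 4. RBFOX3 (0.30), ELAVL3 (0.04) and CELF4 (0.05), RNA-binding proteins used as neuron markers, had small differences with overlapping sets.

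Transmitter genes were divided. Of 11 genes of GABA transmission, 4 were higher and 0 lower with a median of 0.84, which was 1.37 at a mean FPKM of at least 5, 0.48 without a filter on low values and 1.54 within prepuberty. GAD2 was among the 4. SLC32A1, the vesicular GABA transporter, had a difference of 0.03.

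Of 10 further genes of glutamate transmission, 3 were higher and 0 lower, against 13.5% and 18.9% of all genes. The median was 0.64, with 1.10 within prepuberty and 0.48 within postpuberty. The AMPA receptor subunit GRIA1 was at 55.2, 47.0 and 38.1 against 24.6, 20.8 and 29.1 (0.88, SD 0.25). The NMDA receptor subunit GRIN1 overlapped narrowly, with Puberty 1 at 28.9 and Postpuberty 3 at 30.9 (1.51, SD 0.81). SLC17A7, the vesicular glutamate transporter typical of cortex, had a negative difference (-1.39) with overlap. Leaving out Puberty 1 gave 9 of 11 separated GABA genes and 7 of 10 glutamate genes, with 2788 higher among all genes. Leaving out Postpuberty 1 gave 5 glutamate genes, with 2377 higher among all genes.

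Few of the peptide and amine genes that mark hypothalamic cell groups separated the sets, and a difference from the other neuronal lists was not tested. Of 17 neuropeptide and secretory genes, 0 separated the sets in either direction, against 13.5% higher and 18.9% lower among all genes. However, 12 differences were above 0 and 5 below, and the median was 0.58. That median was 0.01 at a mean FPKM of at least 5. With 1 library left out at a time it ranged from 0.25 without Prepuberty 2 to 1.02 without Postpuberty 3, and was 0.35 without Prepuberty 1 and 0.34 without Postpuberty 1. SST, somatostatin, was at 95.4 in Prepuberty 2, 19.3 in Postpuberty 2 and 67.3 in Puberty 1, and at 107 in Postpuberty 3, 13.1 in Prepuberty 1 and 4.27 in Postpuberty 1. SCG2, the precursor secretogranin, was at 184, 128 and 97.1 against 120, 92.6 and 18.8. CHGB, a granule protein, had a difference of -0.07 that turned to 0.02 with libraries scaled to an equal sum. The precursors of thyrotropin-releasing and corticotropin-releasing hormone, TRH (-1.73) and CRH (-1.77), had negative differences with overlap. Without Postpuberty 3, 6 of the 17 were higher without overlap, without Puberty 1, 3 were higher and 1 lower, and without Postpuberty 1, 3 were lower. Among all genes, 2666 were higher without Postpuberty 3 and 3060 lower without Postpuberty 1. Without Puberty 1, 2788 of all genes were higher and 2974 lower.

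All 6 measured genes of monoamine synthesis and transport had negative differences, with a median of -0.94. Of them 1, SLC18A2, the vesicular monoamine transporter, separated the sets (-0.71). This count was near the 18.9% of all genes that were lower. The high values came from different libraries. TH, of dopamine synthesis, was at 20.2 in Postpuberty 1 and at most 3.05 in the other 5. TPH2, of serotonin synthesis, was at 9.36 in Prepuberty 1, 6.15 in Postpuberty 3 and 4.16 in Puberty 1 and at most 0.0634 in the other 3. The count of separated genes was 4 of 5 without Postpuberty 1, 2 without Puberty 1 and 2 without Prepuberty 1. Among all genes, 3060, 2974 and 2705 were lower in these settings. The median of the monoamine list was -0.48 without Prepuberty 2.

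**Figure D3:**
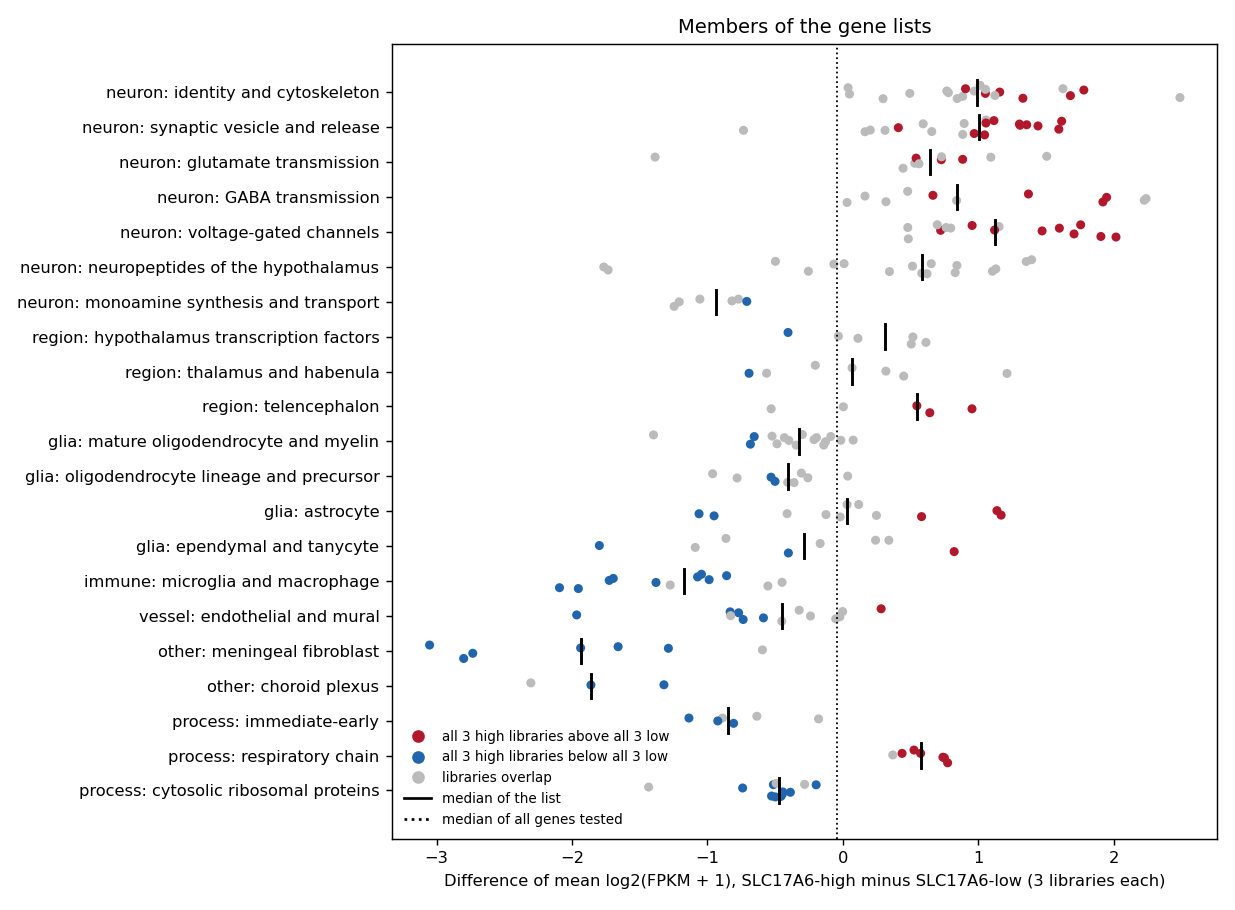
Differences of mean log2(FPKM + 1), SLC17A6-high minus SLC17A6-low, for the measured members of 21 gene lists, 1 point per gene, with the median of each list (bar) and of all genes (dotted line, -0.04). The separated members of the 5 lists of neuronal structure, release, transmission and channels lie to the right, and those of the microglia, fibroblast and ribosomal lists to the left.

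Genes of neighbouring regions were read because a dissection can take in more or less of each. Of 6 measured transcription factors of hypothalamus, 0 were higher and 1, TBX3 (-0.40), was lower. Among all genes 13.5% were higher and 18.9% lower, so the lower count was near the share of all genes. Without Postpuberty 2, 2 were higher and 1 lower, and without Prepuberty 2, 0 were higher and 2 lower. Without Prepuberty 1 or Postpuberty 1, 1 went each way. The median of 0.31 was -0.03 without the filter on low values. It was 0.09 without Prepuberty 2 and 0.16 without Postpuberty 3. FOXB1, a factor of mammillary cells, was at 6.75, 2.76 and 4.17 against 2.67, 3.08 and 2.51, and POU3F2 at 4.62, 2.82 and 2.96 against 1.09, 2.56 and 2.88. The thalamus and habenula list had 0 higher and 1 lower of 7, again near the share of all genes that were lower. Its median of 0.07 ranged from -0.23 without Postpuberty 2 to 0.68 without Puberty 1. The count of higher genes was 3 of 9 without Puberty 1, 3 of 8 without Postpuberty 3 and 1 without Prepuberty 1 or Postpuberty 1, and 2 were lower without Postpuberty 1. TCF7L2, a factor of thalamic neurons, was at 11.8 in Postpuberty 2 and at most 4.601 in the other 5. Of 5 telencephalic genes that passed the filter, 3 that are typical of striatum were higher (2 without Prepuberty 2 or Postpuberty 2), against 13.5% of all genes. DRD1, among these 3, passed the filter through the SLC17A6-high set. Without the filter 3 of 13 telencephalic genes were higher, with 1989 higher among all genes. The dopamine receptor DRD1 was at 2.48, 2.23 and 0.859 against 0.721, 0.163 and 0.438, PPP1R1B, the phosphatase inhibitor DARPP-32, at 19.2, 20.3 and 20.1 against 11.3, 10.05 and 16.6, and RGS9 at 3.58, 2.75 and 2.30 against 2.26, 0.980 and 1.82. The receptor DRD2 had a difference of 0.00 (SD 0.48). The part of tissue boundaries in the neuronal differences was not tested.

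PRL, the pituitary hormone prolactin, was at 0.0562 in Prepuberty 2, 74.4 in Postpuberty 2 and 0.297 in Puberty 1, and at 8.46, 3.28 and 199.5 in Postpuberty 3, Prepuberty 1 and Postpuberty 1. It was highest in the library with the least SLC17A6 but also high in an SLC17A6-high library, so the sets overlapped. LHB, the luteinising hormone subunit, was at most 0.445 in the SLC17A6-high set and at 4.97, 2.32 and 0.802 in the other.

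Microglia and macrophage genes were lower in the SLC17A6-high set in 9 of 12 members, with 0 higher and a median of -1.17. Their summed FPKM was 194, 130 and 178 in Prepuberty 2, Postpuberty 2 and Puberty 1, and 636 in Postpuberty 3, 602 in Prepuberty 1 and 286 in Postpuberty 1. The complement genes C1QB and C1QC, made by brain phagocytes, showed this most. C1QB was at 27.0, 16.4 and 23.6 against 161, 115 and 35.96 (-1.95, SD 0.83), and C1QC at 22.9, 15.2 and 11.04 against 152, 74.9 and 30.04 (-2.09, SD 0.89). TYROBP, a signalling adaptor of microglia, was at 25.8, 18.5 and 25.2 against 108, 102 and 40.4 (-1.70, SD 0.58), and its receptor partner TREM2 at 12.4, 8.43 and 14.1 against 30.8, 44.5 and 22.3. Postpuberty 3 and Prepuberty 1 had the highest values of the C1Q genes and TYROBP, and Postpuberty 1 lay much nearer to the SLC17A6-high set. P2RY12, a marker of resting microglia, did not follow, with 6.85 in Postpuberty 3, below Prepuberty 2 (9.18) and Puberty 1 (14.9).

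Among the genes with the largest negative differences, OVAR-DRB1, CXCL9 and LGALS3 were likewise much higher in Postpuberty 3 and Prepuberty 1 than in Postpuberty 1. OVAR-DRB1, a sheep MHC class II chain, was at 4.82, 1.69 and 14.2 against 184 in Postpuberty 3, 118 in Prepuberty 1 and 19.9 in Postpuberty 1 (-3.64, SD 1.47). CXCL9, a chemokine induced by interferon gamma, was at 1.75, 2.25 and 2.50 against 45.4, 34.5 and 4.06 (-2.69, SD 1.24). LGALS3, a galectin of activated phagocytes, was at 1.29, 1.602 and 5.30 against 38.4, 28.5 and 7.18. CD74, the invariant chain of MHC class II, which was also picked after its values were seen, was at 61.3, 52.8 and 100 against 913, 655 and 113. MHC genes are polymorphic and have near copies, so their FPKM can depend on how reads were assigned.

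Large negative differences were found in genes of connective tissue and meninges. COL1A1, a chain of collagen I, was at 3.66, 2.11 and 3.18 against 15.7, 29.3 and 39.6 (-2.80, SD 0.51), and COL1A2, its partner chain, at 7.93, 4.51 and 6.55 against 29.4, 51.8 and 66.9 (-2.73, SD 0.49). These genes were high in all 3 SLC17A6-low libraries. Of 7 genes of meningeal fibroblasts, 6 were lower and 0 higher, with a median of -1.94. FMOD, a collagen-binding proteoglycan, was at 0.430, 0.527 and 1.13 against 6.72, 16.8 and 18.3 (-3.05, SD 0.56), and the proteoglycan DCN at 6.43, 4.53 and 5.48 against 15.6, 30.7 and 27.4. The growth factor IGF2 (-2.77, SD 0.34), the secreted SERPINF1 (-2.89, SD 0.34) and the complement component C7 (-2.80, SD 0.21) were also among the 12 largest negative separated differences, with C24H16orf89 (-3.82, SD 0.998) and MUSTN1 (-2.67, SD 0.69). The summed fibroblast list was at 29.3 to 32.2 in the SLC17A6-high set and at 86.6 to 208 in the SLC17A6-low set, but Puberty 3 had 162 with SLC17A6 close to that of Puberty 1. High fibroblast genes thus also occurred with a middle level of SLC17A6.

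Of 3 choroid plexus genes that passed the filter, KCNJ13 and AQP1 did so through the SLC17A6-low set, and at a mean FPKM of at least 5 neither was kept. The channel KCNJ13 was at 0.144, 0.151 and 0.910 against 4.67, 3.15 and 4.12 (-1.86, SD 0.34). TTR, transthyretin, the main product of this epithelium, overlapped with 255 in Puberty 1 and 47.1 in Postpuberty 1, and was at 7594 in Puberty 3. Of 13 vessel genes, 5 were lower and 1 higher, with a median of -0.45. CLDN5, of endothelial junctions, was at 54.7, 64.2 and 60.6 against 84.5, 104 and 114 (-0.74, SD 0.18), and ACTA2, smooth muscle actin, at 23.8, 19.6 and 23.3 against 53.4, 56.9 and 233. Without Postpuberty 3, 8 vessel genes were lower, with 3213 lower among all genes. The higher one was the mural potassium channel KCNJ8 (0.28). The marker of red blood cells that passed the filter, HBB, was at most 5.07 in the 6 libraries and its sets overlapped. The part of these other cell types in the neuronal differences was not tested.

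Myelin genes differed less. Of 16 measured, 2 were lower and 0 higher, with a median of -0.32. This was a smaller share than the 18.9% of all genes that were lower, but 15 of the 16 differences were below 0. MBP, myelin basic protein, was at 2426, 1112 and 4353 against 3920, 7824 and 7013 (-1.40, SD 0.79), and CNP, an enzyme of the myelin sheath, at 490, 719 and 578 against 686, 812 and 898 (-0.43, SD 0.24). The sets overlapped through Puberty 1 and Postpuberty 3 for MBP and through Postpuberty 2 and Postpuberty 3 for CNP, and the difference of MBP was -0.88 without Postpuberty 2. Without Postpuberty 3, 8 of the 16 were lower, with 3213 lower among all genes. Without Postpuberty 2, 5 were lower (2930 among all genes), and without Puberty 1, 4 (2974). The comparison with the share of all genes thus turned on single libraries. The median was -0.21 without Prepuberty 2. Of 9 genes of the oligodendrocyte lineage, 2 were lower, near the 18.9% of all genes. SOX10 was among them, at 35.3, 48.5 and 43.6 against 55.9, 53.9 and 71.9. Without Postpuberty 3, 5 lineage genes were lower (3213 among all genes), and without Puberty 1, 4 (2974).

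Astrocyte genes went both ways, with 3 of 11 higher, 2 lower and a median of 0.03. Among all genes 13.5% were higher and 18.9% lower, so the share of lower astrocyte genes was near that of all genes. The higher ones were the glutamate transporters SLC1A2 and SLC1A3 (0.58) and the glycolytic enzyme ALDOC. SLC1A2 was at 74.4, 70.1 and 76.0 against 23.1, 32.8 and 43.5 (1.17, SD 0.32), and ALDOC at 817, 761 and 618 against 465, 168 and 457 (1.14, SD 0.61, and 0.65 without Prepuberty 1). The lower ones were GFAP, the filament of astrocytes, and AQP4, their water channel. GFAP was at 2348, 2370 and 3456 against 4693, 6624 and 5632 (-1.06, SD 0.29), and AQP4 at 103, 78.4 and 140 against 181, 233 and 195 (-0.95, SD 0.32). Without Prepuberty 2, 5 astrocyte genes were higher, with 1917 higher among all genes. VIM, the filament of tanycytes and also of fibroblasts and vessels, was at 53.3, 63.6 and 77.8 against 177, 238 and 272 (-1.80, SD 0.29). Over the ependymal and tanycyte list, 1 of 8 was higher and 2 were lower, near the shares of all genes. Without Puberty 1, 4 ependymal genes were lower, with 2974 lower among all genes.

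**Figure D4:**
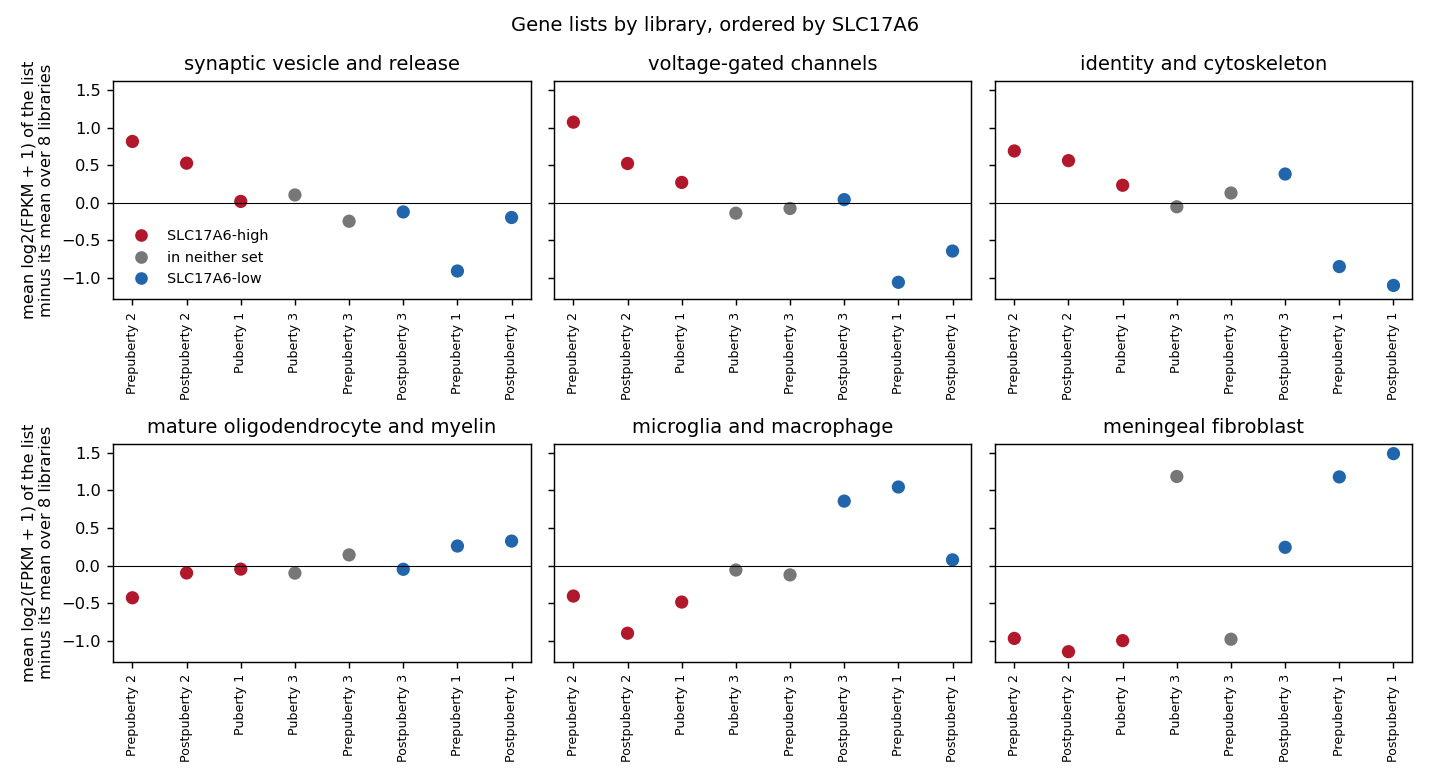
Mean log2(FPKM + 1) of 6 gene lists in each of the 8 ranked libraries, minus the mean of the list over the 8, ordered from most to least SLC17A6 with 1 point per library. Postpuberty 3 stands at 0.38 for the identity list, above Puberty 1 at 0.23, and Puberty 3 stands with the SLC17A6-low libraries for the fibroblast list.

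Of the genes of general cell processes, those of the respiratory chain and of ribosomes also followed the sets. Of 7 measured respiratory chain and ATP synthase genes, 6 were higher and 0 lower, with a median of 0.57. ATP5F1B, the catalytic subunit of ATP synthase, was at 365, 381 and 317 against 258, 170 and 210 (0.75, SD 0.23), and NDUFB8, of complex I, at 195, 197 and 197 against 149, 114 and 149 (0.53, SD 0.16). Of 12 cytosolic ribosomal protein genes, 9 were lower and 0 higher, with a median of -0.47. RPS14 was at 480, 536 and 437 against 613, 735 and 632 (-0.45, SD 0.14). Ribosomal protein genes have many processed copies, so their FPKM can depend on how reads were assigned. Of 6 immediate-early genes, which respond to activity and to handling of tissue, 3 were lower, against 18.9% of all genes, with a median of -0.85. With the libraries scaled to an equal sum 0 of the 6 were lower, with 1693 lower among all genes. Their summed FPKM as deposited overlapped, at 23.7 to 63.5 in the SLC17A6-high set and 60.8 to 73.5 in the SLC17A6-low set. JUNB was at 8.884, 4.695 and 5.803 against 17.82, 20.86 and 8.889, so its sets were barely apart. EGR1 overlapped (-0.18) and was highest in Prepuberty 2 (18.2). Without Prepuberty 2 all 6 immediate-early genes were lower, with 2949 lower among all genes. The median of this list was -0.52 without Puberty 1 and -0.56 without Postpuberty 1.

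Over the 7 lists of neuronal genes together, 33 of 99 measured members (33.3%) were higher and 1 (1.01%) was lower. These counts moved with single libraries. Without Puberty 1, 15 of 20 vesicle release and 9 of 11 GABA genes were higher, with 2788 higher among all genes. Without Postpuberty 3, 15 of 19 identity genes were higher, with 2666 among all genes. Without Postpuberty 1, 4 of 5 monoamine and 3 of 17 neuropeptide genes were lower, with 3060 lower among all genes. Over the 4 glial lists 4 of 44 (9.09%) were higher and 8 (18.2%) lower, near the 13.5% and 18.9% of all genes. That nearness depended on single libraries. Without Postpuberty 3, 8 of 16 myelin and 5 of 9 lineage genes were lower, with 3213 lower among all genes. Without Puberty 1, 4 myelin, 4 lineage and 4 ependymal genes were lower, with 2974 among all genes. Lower genes were more common among compact genes, since 740 of the 3083 genes with the shortest gene span (24%) were lower against 14.7% of the 3082 with the longest, while higher genes made up 13.2% and 14.9%. Higher genes were more common at high expression, with 20.9% of the 3082 genes with the highest mean FPKM and 8.18% of the 3082 with the lowest. The part of gene length and level in the list counts was not tested.

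The 2 libraries in neither set give a view of the genes in samples that did not choose them, as 1 library against 1. Puberty 3 had slightly more SLC17A6 than Prepuberty 3. It also had the higher value in 69.0% of the 1667 higher genes, but this was true of 69.4% of all genes, and after scaling by the upper quartile the shares were 49.1% and 52.9%. Of the 2324 lower genes, 76.0% were higher in Puberty 3 (60.0% after scaling). The higher genes were thus no more often above in Puberty 3 than genes at large. Among vesicle release genes 17 of 20 were above in Puberty 3 (65% after scaling), among voltage-gated channels 6 of 15 (33.3%), and all 7 fibroblast genes were, with and without scaling.

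Within stages the direction of genes that separate the sets is fixed by that separation, so the sizes alone are given. Prepuberty 2 minus Prepuberty 1 had a median of 1.98 for vesicle release genes, 2.10 for channels, -1.55 for microglia and -2.09 for fibroblast genes. Postpuberty 2 minus the mean of Postpuberty 1 and 3 had 0.72, 0.86, -1.17 and -1.97. The neuronal medians were the larger in prepuberty, while those of fibroblast genes were close. These are single libraries against 1 or 2, from the same 6 that formed the sets, and puberty held no SLC17A6-low library.

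Stages were the labelled groups, and their comparison was the one tested. With limma on the 8 ranked libraries and 12322 genes, 0 genes (0%) passed an absolute log2 fold change of 1 and a Benjamini-Hochberg adjusted p of 0.05 between puberty and prepuberty, 0 (0%) between postpuberty and puberty and 0 (0%) between postpuberty and prepuberty. At an unadjusted p below 0.05 there were 182, 220 and 224 genes. Leaving out Prepuberty 1 gave 2, 0 and 2 genes past both thresholds, leaving out Puberty 3 gave 1 between postpuberty and puberty, and leaving out Postpuberty 3 gave 1 between postpuberty and prepuberty. The fold change of SLC17A6 on the log2 scale was -0.05 (SE 1.33) from prepuberty to puberty and -0.94 (SE 1.19) from prepuberty to postpuberty, and that of SNAP25 was 0.50 (SE 0.56) and 0.15 (SE 0.50), with limma adjusted p-values of 0.9999 for puberty and 1 for postpuberty in both genes. Each of these fold changes was smaller than its standard error. The share of the variance that lay between stages was 9.34% for SLC17A6, 10.7% for SNAP25, 2.29% for SYT1 and 4.48% for GAD2. Its median was 7.92% over the genes higher in the SLC17A6-high set, 9.87% over those lower and 13.5% over all genes. The sets were each drawn across stages, so a low share between stages is in part set by the choice of libraries.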

How the data were processed

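Poly(A) RNA of hypothalamus was sequenced by the authors from 9 Dolang ewes. Reads were trimmed with Trimmomatic (version 0.32 per the submitters' processing notes, a later version per the study's methods), aligned with HISAT2 to ARS-UI_Ramb_v3.0 and assembled with StringTie. The deposited values are FPKM per transcript, made by the authors, although the table is described as raw counts. They are not whole numbers, so the planned use of log values and limma was kept and no test for counts was run. Read depth is not in these values, and the precision was set by the spread between libraries.

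Of 76684 RefSeq transcripts of protein-coding genes, 76682 matched a symbol of the RefSeq gene table of the same assembly and were summed to 21284 genes. A pseudocount of 1 and a mean FPKM of at least 1 over the 6 libraries were used. Libraries were chosen by SLC17A6 as described above, with Puberty 2 left out, and differences between the sets were not tested. Stages were compared with limma (trend) on the 8 ranked libraries, with Benjamini-Hochberg adjustment over all genes, after the procedure was tested on simulated data. That simulation planted large changes on a spread below that of SLC17A6 and SNAP25. It therefore does not show how well stage changes in such genes would be found. The members and the 23 gene lists were chosen with earlier results of these data known. Of 298 listed genes, 284 had a symbol in the table and 224 passed the filter.

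Genes named were SLC17A6, SNAP25, SYT1 and GAD2, the 12 largest separated differences in each direction among genes with a name, and the 3 members of each list with the highest mean FPKM. Others were picked after their values were seen, and some genes that the rule selects are not reported here. Alternatives covered the pseudocount, scaling, filter, transcripts summed, a replicate block, SLC17A6 as a covariate, single stages and leaving out each library. Sequences were not used here. Sums and figures were made in Python 3.11.15 (scipy 1.17.1, pandas 2.3.3, numpy 2.4.6, matplotlib 3.10.9), and limma was version 3.58.1 under R 4.3.3.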

Additional observations from a re-analysis of the deposited data

Results flagged for a closer look

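7 of the genes named here had within-stage differences of opposite sign in every library concerned, positive in one stage and negative in the other. The difference between stages was not tested in any of them, and it compares Prepuberty 2 minus Prepuberty 1 with Postpuberty 2 minus the mean of Postpuberty 1 and 3. For CHGB the prepuberty difference of 0.55 exceeded the postpuberty difference of -0.41 by 0.95 on the log2 scale, and for ARNT2, a factor of hypothalamic development, 0.37 exceeded -0.23 by 0.61. For EGR1 0.45 exceeded -0.24 by 0.69. TCF7L2 went the other way, with -0.43 in prepuberty and 1.73 in postpuberty, a gap of -2.17, in which Postpuberty 2 alone was at 11.8 FPKM. For AHSP, a chaperone of haemoglobin, the values were -0.34 and 0.06, a gap of -0.40, with all levels under 0.5 FPKM. CPLX1 and SLC32A1, which were named after their values were seen, also had a negative difference in prepuberty and a positive one in postpuberty. The values were -2.95 and 2.43 for CPLX1, a gap of -5.38, and -2.05 and 1.61 for SLC32A1, a gap of -3.66. A check for single outlying libraries was not applicable, since no stage had 4 libraries or more.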

How the results depend on the processing

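The differences between the sets rest on 3 libraries against 3, with no test, and small list medians turned with the settings. With a pseudocount of 0.1, 692 genes were lower by at least 1. With a mean FPKM of at least 5, 1295 genes were lower and 238 by at least 1, as fewer genes entered. Of the hypothalamus transcription factors only 1, ARNT2, was then left, at -0.033. Without a filter the median of these factors was -0.030 and that of the telencephalic genes -0.021. A filter on the mean over the 8 ranked libraries, chosen after the data were seen, gave -0.068 for the thalamus list. Scaling to an equal sum turned the median of all genes to 0.031, CHGB to 0.021 and ARNT2 to 0.049. Within prepuberty the medians were 1.98 for vesicle release, 2.10 for channels, -0.68 for myelin, -0.62 for ribosomal, -0.25 for thalamus, -0.38 for astrocyte and 0.0099 for all genes, and CHGB (0.55), ARNT2 (0.37), TCF7L2 (-0.43), PTPRZ1 (-0.044) and EGR1 (0.45) changed sign. Within postpuberty the ribosomal median was -0.26 and that of the hypothalamus factors -0.24, and SST (-0.23), PLEKHG1 (0.23), DRD2 (-0.15), PRL (0.79), CGA (0.60), PTPRZ1 (-0.054), AHSP (0.063) and SLC4A1 (0.0005) changed sign. Puberty gave no such value. The causes were not tested.

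Leaving out 1 library at a time gave 1896 to 2788 higher genes, 2705 to 3213 lower, 202 to 588 higher by at least 1 and 408 to 710 lower by at least 1. The medians ranged from 0.70 to 1.14 for vesicle release, 0.88 to 1.43 for channels, -0.44 to -0.21 for myelin, -1.45 to -0.86 for microglia, -2.22 to -1.75 for fibroblast and -0.52 to -0.43 for ribosomal genes. The sign turned for the thalamus list (-0.23 to 0.68), the astrocyte list (-0.035 to 0.21), NEFL (-0.13 to 1.45), CHGB (-0.24 to 0.15), ARNT2 (-0.21 to 0.058), TCF7L2 (-0.30 to 0.74), PLEKHG1 (-0.91 to 0.087), DRD2 (-0.23 to 0.39), CGA (-0.83 to 0.35), PTPRZ1 (-0.096 to 0.19), CCDC153 (-0.46 to 0.054), SLC4A1 (-0.0072 to 0.0004) and EGR1 (-0.76 to 0.24).

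With the replicate number as a block, limma called 0 genes in each stage comparison, as without it. Deviations of same-numbered libraries correlated at -0.33 to 0.52 across genes, so the numbers were not taken as pairs. Leaving out libraries gave 0 to 2 calls between puberty and prepuberty, 0 to 1 between postpuberty and puberty and 0 to 2 between postpuberty and prepuberty, and the other alternatives gave 0.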

Other observations

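A few genes with a mean FPKM of at least 1 were listed at 0 in a whole set besides NKRF, and those below were picked after their values were seen. RXFP2, a relaxin family receptor, was at 27.1 in Prepuberty 2, 29.8 in Puberty 1 and 15.7 in Prepuberty 3, and listed at 0 in Postpuberty 2 and in all 3 SLC17A6-low libraries. CCL19, a chemokine of lymphocyte homing, was listed at 0 in all 3 SLC17A6-high libraries and was at 6.22 in Postpuberty 3, 4.39 in Prepuberty 1 and 0.992 in Postpuberty 1. TFF3, a secreted trefoil peptide, was at 6.59 in Prepuberty 1 and at 0.396 in Puberty 2 and listed at 0 elsewhere.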
